A study of Mus musculus with 9 samples.

Results

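The genes described here encode 6 receptors of selective autophagy (Calcoco1, Calcoco2, Sqstm1, Nbr1, Optn and Tax1bp1) and 4 proteins of the ATG8 family that such receptors bind (Map1lc3a, Map1lc3b, Gabarap and Gabarapl1). All 10 were taken by symbol from tables of 24411 genes, and all 10 passed the filter on low counts, which left 14300 genes to be tested. They were chosen by the function of their proteins and with measured values in view, namely the log2 fold changes and calls of these same libraries in the 3 comparisons below. Their levels, fold changes and calls are therefore given as a description, without p-values, and support nothing beyond themselves.

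Selective autophagy delivers chosen cargo, such as damaged mitochondria, stretches of endoplasmic reticulum, protein aggregates or invading bacteria, to the lysosome. A receptor binds the cargo, often through ubiquitin, and at the same time binds ATG8 proteins that are coupled to lipid on the growing autophagosome membrane. The ATG8 proteins fall into the LC3 and GABARAP subfamilies. Most receptors are broken down with their cargo, so protein levels of this pathway can part from the RNA levels measured here.

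The libraries came from mouse EB5 embryonic stem cells, a line known to descend from the male line E14tg2a and to carry a blasticidin-resistance cassette at 1 Oct3/4 allele. They were grown in serum and leukemia inhibitory factor on gelatin, per the labels. Zfp352/Zfp353-DKO cells had both zinc finger genes deleted with CRISPR-Cas9, Zfp352-KO cells had Zfp352 alone deleted, and Parental cells had neither deleted, with 3 libraries of each. The cassette allele is shared by the 3 genotypes. The labels do not say whether an edited genotype is 1 clone or several, or whether its libraries are separate cultures. Genotype and line therefore cannot be told apart, and the spread between libraries may be technical. Fewer cells of a kind and less RNA per cell cannot be told apart in such bulk libraries either.

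Expected counts per library, the estimated read numbers per gene, summed to between 16599004 and 22044820. Zfp352 had expected counts of 1, 1 and 3 in Zfp352/Zfp353-DKO libraries, 3, 8 and 10 in those of Zfp352-KO, and 47, 52 and 41 in Parental libraries. Zfp353 was not analysed here, so the labels are checked for Zfp352 alone. Embryonic stem cell markers (10 genes, none at 0) summed to between 7799 and 7860 TPM in Zfp352/Zfp353-DKO, 7717 and 7836 TPM in Zfp352-KO, and 7736 and 7869 TPM in Parental libraries. TPM is a level scaled for transcript length and library size. Of the 10 stem cell markers, all tested, 2 were called higher in Zfp352/Zfp353-DKO and 1 in Zfp352-KO against Parental cells. Between the edited genotypes 0 of them were called. Fibroblast markers (20 genes) summed to between 746 and 781 TPM in Zfp352/Zfp353-DKO, 833 and 878 TPM in Zfp352-KO, and 931 and 997 TPM in Parental libraries, and Lum was at 0 TPM in all Zfp352-KO and Parental libraries. Of the 17 tested, 9 were called lower in Zfp352/Zfp353-DKO and 9 lower and 1 higher in Zfp352-KO against Parental cells. Between the edited genotypes 3 were called lower. Over all 14300 tested genes, 8.47% were called in Zfp352/Zfp353-DKO and 7.06% in Zfp352-KO against Parental cells, and 0.105% between the edited genotypes. Trophectoderm markers (12 genes, none at 0) summed to between 267 and 279 TPM in Zfp352/Zfp353-DKO, 299.8 and 305 TPM in Zfp352-KO, and 408 and 464 TPM in Parental libraries. Of the 11 tested, 5 were called lower in each edited genotype against Parental cells and 0 between the edited genotypes. Primitive endoderm markers (11 genes, none at 0) summed to between 149.98 and 162 TPM in Zfp352/Zfp353-DKO, 159.7 and 176 TPM in Zfp352-KO, and 192 and 199.9 TPM in Parental libraries. Of the 10 tested, 2 were called lower and 1 higher in Zfp352/Zfp353-DKO and 2 lower in Zfp352-KO against Parental cells. Between the edited genotypes 0 were called. Neuroectoderm markers (8 genes, with Neurog2 at 0 in Parental) summed to between 148 and 155 TPM in Zfp352/Zfp353-DKO, 146 and 155 TPM in Zfp352-KO, and 153 and 158 TPM in Parental libraries. Of the 5 tested, 1 was called lower in each of the 3 comparisons. Across genes, deviations of library-scaled log2 counts from the mean of all libraries also moved with transcript length, with Spearman's rho from -0.128 to 0.362 in Zfp352/Zfp353-DKO, from -0.0656 to 0.394 in Zfp352-KO and from -0.402 to -0.0825 in Parental libraries. Genes are not independent replicates in such a correlation.

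Of the 10 genes, 8 had an entry in the RefSeq promoter table (GRCm38.p6). Calcoco2 and Map1lc3a are named only. The windows of Calcoco1 and Gabarapl1 are shown because these are the genes with an entry that were called in a comparison below. Each is the 250 bases before the annotated start, read 5′ to 3′ on the gene's strand. Calcoco1 lies on the minus strand (chr15:102722179-102722428) and Gabarapl1 on the plus strand (chr6:129532942-129533191). Capitals mark GGGCGG on either strand, the core of a GC box, the kind of site that SP-family factors bind.
Calcoco1: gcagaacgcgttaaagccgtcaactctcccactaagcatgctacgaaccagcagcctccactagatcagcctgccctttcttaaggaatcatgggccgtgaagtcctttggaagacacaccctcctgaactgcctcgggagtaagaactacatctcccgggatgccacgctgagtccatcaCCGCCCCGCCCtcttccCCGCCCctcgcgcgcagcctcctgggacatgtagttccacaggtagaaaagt
Gabarapl1: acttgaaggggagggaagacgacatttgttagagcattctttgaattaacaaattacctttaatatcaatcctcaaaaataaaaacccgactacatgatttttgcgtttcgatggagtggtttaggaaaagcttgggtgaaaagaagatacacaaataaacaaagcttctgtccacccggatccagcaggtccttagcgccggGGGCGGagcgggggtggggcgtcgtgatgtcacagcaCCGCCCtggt
The Calcoco1 window held 3 such matches and the Gabarapl1 window 2. GGGCGG was in the windows of 5 of the 8 genes and in 32.74% of 32851 windows of this length, and the other 3 genes with it were Map1lc3b, Optn and Sqstm1. CACGTG, the core of the element through which TFEB acts on lysosomal genes, was in 0 of the 8 windows and in 6.02% of all. TGACNNNGC, the core of the element bound by NRF2, was in a window of 1 gene, Tax1bp1, and in 10.16% of all windows. Both strands were searched, and a match is a description of letters, not of a bound site.

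By TPM over all 9 libraries, Sqstm1 was the most abundant of the 10 transcripts, at 244 ± 10.2 TPM (SD, n = 9), and ranked 574 among all genes. Gabarap followed at 187 ± 7.21 TPM, then Map1lc3b at 172 ± 5.97 TPM and Calcoco2 at 134 ± 23.1 TPM. Nbr1 was at 93.3 ± 7.30 TPM and Tax1bp1 at 83.8 ± 3.89 TPM. A lower tier held Calcoco1 (28.9 ± 1.99 TPM), Map1lc3a (25.5 ± 2.30 TPM), Gabarapl1 (14 ± 1.57 TPM) and Optn (7.98 ± 0.791 TPM). Library ranges of neighbours in this order overlapped from Gabarap through Tax1bp1 and again between Calcoco1 and Map1lc3a. They did not overlap between Sqstm1 and Gabarap, Tax1bp1 and Calcoco1, Map1lc3a and Gabarapl1, or Gabarapl1 and Optn. The spread over libraries relative to the mean level was widest for Calcoco2, at 17.3%, and narrowest for Map1lc3b, at 3.46%.

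Calcoco2 encodes NDP52, known in human cells as a receptor that brings ubiquitin-coated bacteria and damaged mitochondria to autophagosomes. Its transcript was lower where both zinc finger genes were deleted, both against Zfp352-KO and against Parental cells. It had 100.3, 103 and 113 TPM in Zfp352/Zfp353-DKO libraries, 139, 150.2 and 137 TPM in Zfp352-KO libraries, and 166, 140.4 and 153 TPM in Parental libraries. Every Zfp352/Zfp353-DKO library lay below every library of the other 2 genotypes, while Zfp352-KO and Parental libraries overlapped. The corresponding expected counts were 2265, 2125 and 2147 in Zfp352/Zfp353-DKO, 2378, 3484 and 2961 in Zfp352-KO, and 3914, 3182 and 3189 in Parental libraries.

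In the step between the edited genotypes, Zfp352/Zfp353-DKO against Zfp352-KO, Calcoco2 differed by -0.43 ± 0.06 on the log2 scale (SE), or -25.6%. A gene was called where its Benjamini-Hochberg adjusted p in edgeR's quasi-likelihood test over all genes was under 0.05, and Calcoco2 was called lower. It was 1 of 10 genes described here and 1 of 15 among 14300 genes (0.105%), of which 13 were lower (0.0909%) and 2 higher (0.014%). Calcoco2 was chosen with this call in view, so the call is given as a description only. Against Parental cells Calcoco2 was at -0.58 ± 0.06 in Zfp352/Zfp353-DKO and was called lower, and at -0.15 ± 0.06 in Zfp352-KO without a call. Its direction and its call in the step between the edited genotypes remained when any 1 of the 9 libraries was left out, with log2 fold changes from -0.46 to -0.39. A fit of log2(TPM + 1) with limma gave -0.43 as well but did not call it, and it called 1 gene in all. Over the 3 genotypes the summed fibroblast, trophectoderm and primitive endoderm markers had the same order of medians as Calcoco2, and their part in the Calcoco2 difference was not tested.

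Among the 6 receptor transcripts together, Calcoco2 made up 18.1 ± 0.816% of the summed TPM in Zfp352/Zfp353-DKO, 23.7 ± 1.3% in Zfp352-KO and 25.7 ± 1.54% in Parental cells (SD, n = 3 each). The 6 receptors summed to 581 ± 12.1 TPM in Zfp352/Zfp353-DKO, 599 ± 9.17 TPM in Zfp352-KO and 595 ± 19.8 TPM in Parental cells. Library ranges of that sum overlapped between Zfp352/Zfp353-DKO (573 to 595) and Parental (572 to 608) cells. Sqstm1 held the largest share in each genotype, at 43.6 ± 1.45% in Zfp352/Zfp353-DKO, 39.5 ± 1.77% in Zfp352-KO and 40.8 ± 0.671% in Parental cells.

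Calcoco2 lies on chromosome 11 at 96098916 to 96124560 (RefSeq, GRCm38.p6, the assembly called mm10), and its span overlaps that of Ttll6 by 104 bases. The 16 tested neighbours within 500 kb of Calcoco2 had log2 fold changes from -0.21 to 0.32 in Zfp352/Zfp353-DKO against Zfp352-KO cells, without an edgeR call. Ttll6 was at -0.14 ± 0.11 in that comparison. Against Parental cells 2 of the 16 neighbours were called lower in Zfp352/Zfp353-DKO (Phb and Atp5g1) and 1 in Zfp352-KO (Atp5g1). Of all 14300 tested genes, 4.82% and 3.64% were called lower there, and 0.105% were called between the edited genotypes. With 16 neighbours nothing is read from these counts. These neighbours were named after their values were seen. Sqstm1, Nbr1 and Gabarap lie on chromosome 11 too and were not called in any comparison. Calcoco2 was the 1 gene of the 10 whose expected counts were not whole, in all 9 libraries, and RSEM, the authors' counting tool, divides reads that match more than 1 gene. Its fractional parts and those of Pigv added to whole numbers within 0.011 in all 9 libraries, and Pigv had expected counts of 160.1 to 229 per library, against 2125 to 3914 for Calcoco2.

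**Figure D1:**
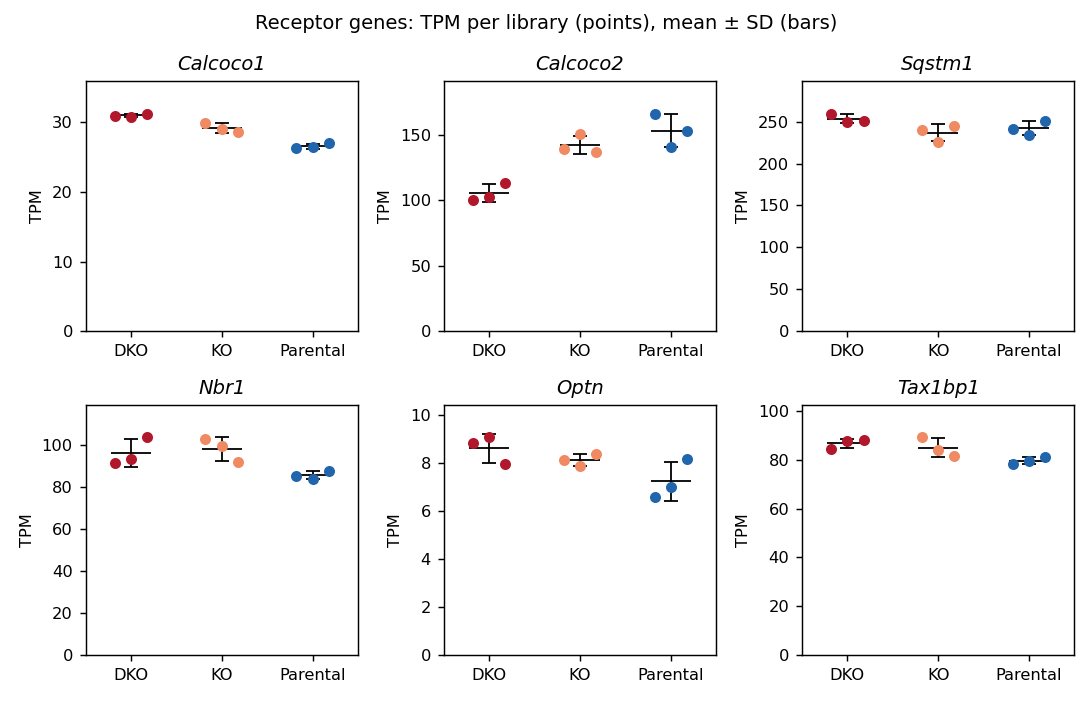
TPM of the 6 receptor genes (y axes, from 0) in Zfp352/Zfp353-DKO (DKO), Zfp352-KO (KO) and Parental libraries. Points are libraries and bars are means ± SD (n = 3); the 3 Calcoco2 values of Zfp352/Zfp353-DKO cells (100.3 to 113) lie below the other 6, and Calcoco1 separates the 3 genotypes in the opposite order.

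Calcoco1, a relative of Calcoco2 known as a receptor for the endoplasmic reticulum and the Golgi, showed the opposite order. It had 30.9, 30.9 and 31.3 TPM in Zfp352/Zfp353-DKO, 30.0, 29.1 and 28.6 TPM in Zfp352-KO, and 26.3, 26.4 and 27.0 TPM in Parental libraries. The 3 genotypes did not overlap. Its log2 fold change was 0.18 ± 0.05 (SE) in Zfp352/Zfp353-DKO against Parental cells, a difference of 13.6%, and it was called higher there by edgeR. That call was lost without Zfp352/Zfp353-DKO library 1 (0.18) or 2 (0.19) and without Parental library 1 (0.18), 2 (0.21) or 3 (0.18), and DESeq2 did not make it. The log2 fold change was 0.09 ± 0.05 in Zfp352-KO against Parental and 0.09 ± 0.05 in Zfp352/Zfp353-DKO against Zfp352-KO cells, without a call in either. Once each library's trend on transcript length and GC content was taken out, Calcoco1 was called higher in Zfp352-KO cells as well, at 0.16 ± 0.05. That call was made in 1 of 20 alternative settings and was lost when a replicate block was added to the same removal (0.16).

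Nbr1, a receptor that works with the Sqstm1 protein on ubiquitin condensates, was not called, although 8 of 20 alternative settings called it in Zfp352-KO cells. It had 91.5, 93.1 and 104 TPM in Zfp352/Zfp353-DKO, 103, 99.6 and 91.8 TPM in Zfp352-KO, and 85.4, 84.0 and 87.8 TPM in Parental libraries. Libraries of both edited genotypes lay above all Parental libraries and overlapped each other. Against Parental cells its log2 fold change was 0.15 ± 0.05 for Zfp352-KO and 0.13 ± 0.05 for Zfp352/Zfp353-DKO, and it was -0.02 ± 0.05 between the edited genotypes. Nbr1 had the longest transcripts of the 10 genes, at a mean of 4605 bases, and after removal of the length and GC trend it was at 0.11 ± 0.03 for Zfp352-KO and 0.10 ± 0.03 for Zfp352/Zfp353-DKO. The settings that called it in Zfp352-KO cells included those without Zfp352-KO library 3 (0.19) and without Zfp352/Zfp353-DKO library 1 (0.16) or 3 (0.15), and DESeq2 (0.16).

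The other 3 receptors had no call in any of the 3 comparisons. Tax1bp1, a receptor for ubiquitin-marked aggregates, had 84.5, 87.6 and 88.0 TPM in Zfp352/Zfp353-DKO, 89.2, 84.0 and 81.7 TPM in Zfp352-KO, and 78.5, 79.6 and 81.1 TPM in Parental libraries. TPM of both edited genotypes lay above Parental for Tax1bp1, with log2 fold changes of 0.08 ± 0.04 in Zfp352/Zfp353-DKO and 0.04 ± 0.04 in Zfp352-KO cells. After removal of the length and GC trend these became 0.04 ± 0.04 for Zfp352/Zfp353-DKO and -0.01 ± 0.04 for Zfp352-KO, so the direction in Zfp352-KO cells did not hold. Optn, which encodes the mitophagy receptor optineurin, was the least abundant of the 10, with 8.81, 9.06 and 7.93 TPM in Zfp352/Zfp353-DKO, 8.12, 7.86 and 8.35 TPM in Zfp352-KO, and 6.56, 7.01 and 8.14 TPM in Parental libraries. All 3 genotypes overlapped for Optn, and its log2 fold change against Parental was 0.22 ± 0.10 in Zfp352/Zfp353-DKO and 0.12 ± 0.10 in Zfp352-KO cells. Sqstm1 encodes p62, which gathers ubiquitin-marked cargo and also binds the NRF2 inhibitor KEAP1. It had 259.5, 249.8 and 251 TPM in Zfp352/Zfp353-DKO, 240.1, 225 and 245 TPM in Zfp352-KO, and 242, 235 and 251 TPM in Parental libraries. For Sqstm1 the edited genotypes did not overlap, at a log2 fold change of 0.11 ± 0.05 for Zfp352/Zfp353-DKO against Zfp352-KO, and each overlapped Parental.

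Of the ATG8 genes, Gabarapl1, a GABARAP-subfamily member, was lower where Zfp352 alone was deleted than in Parental cells. It had 14.2, 13.0 and 13.4 TPM in Zfp352/Zfp353-DKO, 13.9, 12.9 and 11.6 TPM in Zfp352-KO, and 16.1, 14.7 and 16.5 TPM in Parental libraries. All 6 edited libraries lay below the 3 Parental ones. Its log2 fold change was -0.35 ± 0.09 (SE) in Zfp352-KO, a difference of -21.7% called lower by edgeR, and -0.26 ± 0.09 in Zfp352/Zfp353-DKO against Parental cells, without a call. Between the edited genotypes it was 0.09 ± 0.09. The call in Zfp352-KO cells was lost without Zfp352-KO library 2 (-0.35) or 3 (-0.29), without Parental library 1 (-0.34), in limma on log2(TPM + 1) (-0.28), and after removal of the length and GC trend (-0.27 ± 0.08). Without Zfp352/Zfp353-DKO library 1, Gabarapl1 was called lower in Zfp352/Zfp353-DKO cells as well (-0.31).

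Gabarap, the founding member of its subfamily, had 194, 199 and 192 TPM in Zfp352/Zfp353-DKO, 188, 180.5 and 186 TPM in Zfp352-KO, and 182, 187 and 175 TPM in Parental libraries. Zfp352/Zfp353-DKO libraries lay above those of both other genotypes, at log2 fold changes of 0.06 ± 0.05 against Parental and 0.08 ± 0.05 against Zfp352-KO cells. Gabarap was not called, but after removal of the length and GC trend it was called higher in Zfp352/Zfp353-DKO than in Parental cells (0.14 ± 0.04). Map1lc3b encodes LC3B, the protein most used to mark autophagosomes. It had 169, 176 and 174 TPM in Zfp352/Zfp353-DKO, 161, 171 and 170.3 TPM in Zfp352-KO, and 178, 171 and 182 TPM in Parental libraries. Zfp352-KO libraries lay below Parental ones by a narrow margin (a highest value of 171.25 against a lowest of 171.49 TPM), at -0.12 ± 0.05 on the log2 scale, and Map1lc3b was not called. That value became -0.04 ± 0.04 after removal of the length and GC trend.

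Map1lc3a, which encodes a second LC3 protein and had the shortest transcripts of the 10 (1045 bases), had the widest spread relative to its mean of the 10 within 1 genotype, Zfp352-KO, with 23.8, 26.3 and 25.5 TPM in Zfp352/Zfp353-DKO, 20.6, 25.3 and 26.9 TPM in Zfp352-KO, and 28.9, 26.8 and 25.6 TPM in Parental libraries. The genotypes overlapped. Its log2 fold change of -0.19 ± 0.10 in Zfp352-KO against Parental cells became 0.01 ± 0.09 after removal of the length and GC trend, and that of -0.15 ± 0.10 in Zfp352/Zfp353-DKO cells became -0.01 ± 0.09. The 4 ATG8 transcripts summed to 407 ± 6.90 TPM in Zfp352/Zfp353-DKO, 389 ± 5.99 TPM in Zfp352-KO and 401 ± 2.90 TPM in Parental cells (SD, n = 3 each). Gabarap and Map1lc3b made up most of that sum in each genotype, at 47.9% and 42.6% in Zfp352/Zfp353-DKO, 47.5% and 43.0% in Zfp352-KO, and 45.2% and 44.1% in Parental cells.

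**Figure D2:**
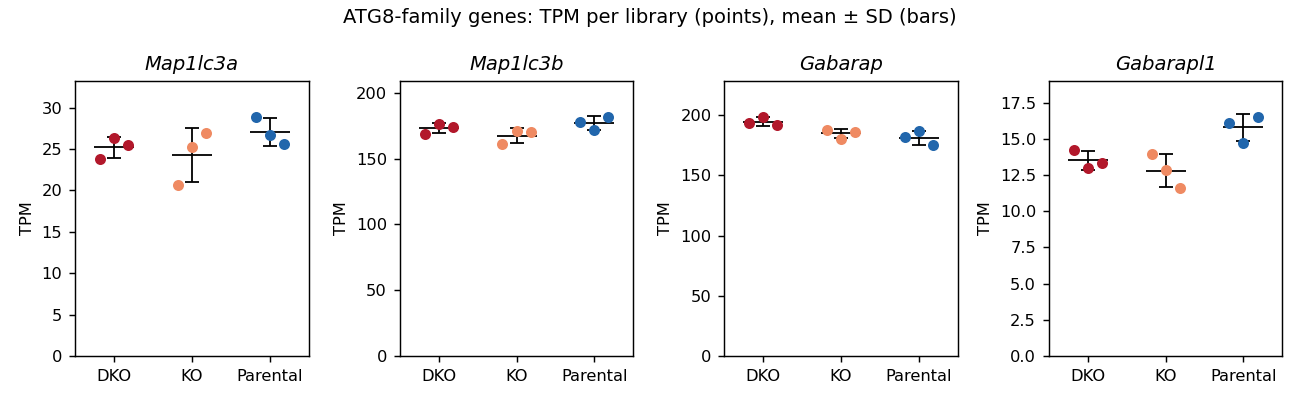
TPM of the 4 ATG8-family genes (y axes, from 0) in Zfp352/Zfp353-DKO (DKO), Zfp352-KO (KO) and Parental libraries. Points are libraries and bars are means ± SD (n = 3); the 6 edited libraries lie below the Parental ones for Gabarapl1, while Map1lc3a overlaps between genotypes.

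Counted over the 10 genes, 1 was called lower and 0 higher in Zfp352-KO against Parental cells, where 7.06% of the 14300 tested genes were called, 3.64% lower and 3.43% higher. In Zfp352/Zfp353-DKO against Parental cells 1 was called higher and 1 lower, where 8.47% of all tested genes were called, 3.65% higher and 4.82% lower. After removal of the length and GC trend, 797 genes were called higher and 658 lower in that comparison, against 522 higher and 689 lower without it. TPM of the groups did not overlap for 5 of the 10 genes in Zfp352-KO against Parental cells, 3 higher and 2 lower, while this held for 26.2% of all tested genes, 16.2% higher and 9.98% lower. It did not overlap for 6 of the 10 in Zfp352/Zfp353-DKO against Parental cells, 4 higher and 2 lower, and for 26.7% of all tested genes, 15.8% higher and 11% lower. Between the edited genotypes it did not overlap for 4 of the 10, 3 higher and 1 lower, and for 10.7% of all tested genes, 5.15% higher and 5.52% lower. The median log2 fold change of the 10 genes against Parental cells was -0.05 for Zfp352-KO and 0.04 for Zfp352/Zfp353-DKO, and it was 0.07 between the edited genotypes. That of all tested genes was -0.01 for Zfp352-KO and 0.00 for Zfp352/Zfp353-DKO, and it was 0.00 between the edited genotypes. The 2 comparisons with Parental cells share the Parental libraries, so their values are not separate evidence, and since all 3 comparisons were in view when the genes were chosen, nothing is read from these counts.

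**Figure D3:**
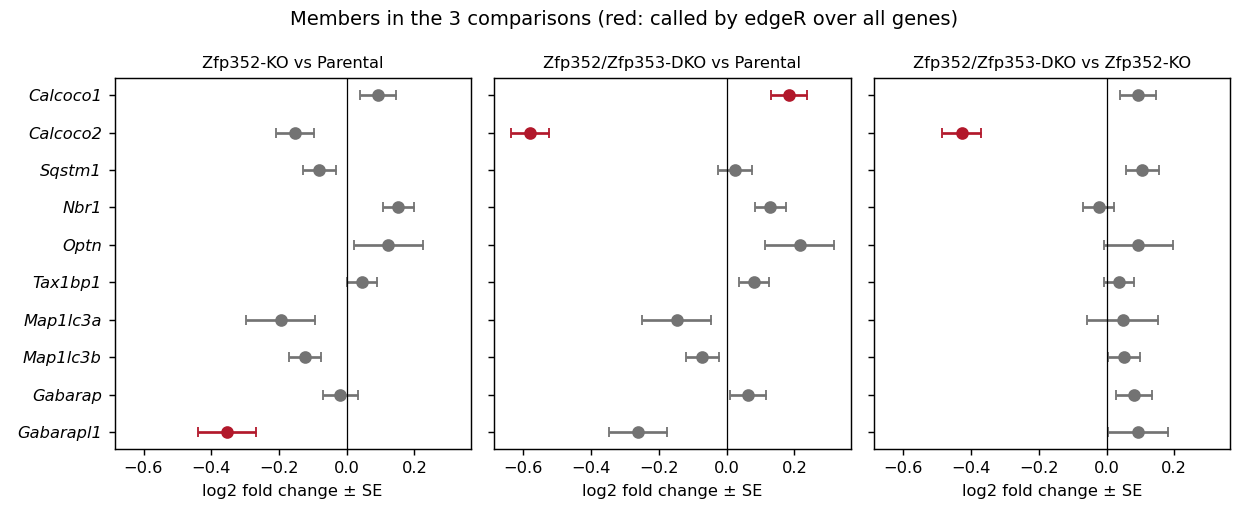
Log2 fold change ± SE (x axis) of the 10 genes (rows) in Zfp352-KO against Parental, Zfp352/Zfp353-DKO against Parental, and Zfp352/Zfp353-DKO against Zfp352-KO cells. Red points were called by edgeR over all genes; Calcoco2 is at -0.58 and -0.43 in the comparisons that hold Zfp352/Zfp353-DKO cells and at -0.15 in the other.

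The rest of the pathway was read from 132 other genes of autophagy, lysosomes and their control, of which 131 were tested. In the step between the edited genotypes 0 of the 131 were called by edgeR, by DESeq2 or by limma, and 14 had an unadjusted edgeR p under 0.05. Of all 14300 tested genes, edgeR called 15 there (0.105%), so 0 of 131 is near that share and nothing is read from it. The median log2 fold change of the 131 was 0.03, against 0.00 for all tested genes. Among the 10 genes and these 131, Calcoco2 was the 1 call between the edited genotypes, and it was chosen with that call in view. The contrast is therefore not read as a difference between Calcoco2 and the rest of the pathway.

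In Zfp352/Zfp353-DKO against Parental cells 7 of the 131 were called (5.34%, against 8.47% of all tested genes), 5 higher and 2 lower. Lamp2, a lysosomal membrane protein, rose to 39.9 ± 3.37 TPM in Zfp352/Zfp353-DKO, against 34.4 ± 2.15 TPM in Parental cells (log2 fold change 0.24 ± 0.07, edgeR adjusted p = 0.031). Mitf, a transcription factor related to TFEB, rose to 3.95 ± 0.675 TPM in Zfp352/Zfp353-DKO, against 2.73 ± 0.0833 TPM in Parental cells (0.49 ± 0.12, adjusted p = 0.012). Nfe2l2, which encodes NRF2, rose by 0.19 ± 0.05 (adjusted p = 0.033), and these were 2 of 14 genes of nutrient and transcriptional control. Of 16 tested NRF2 targets, 0 were called in that comparison by edgeR, DESeq2 or limma, and 5 had an unadjusted edgeR p under 0.05. Rb1cc1, a scaffold of the initiation complex, rose by 0.27 ± 0.08 (adjusted p = 0.034, 1 of 5 genes). Gabarapl2, the ATG8 gene most abundant here, had 344, 354 and 359 TPM in Zfp352/Zfp353-DKO, 378, 407 and 387 TPM in Zfp352-KO, and 379, 399.8 and 388 TPM in Parental libraries. It fell in Zfp352/Zfp353-DKO against Parental cells by 0.18 ± 0.05 on the log2 scale (adjusted p = 0.026) and was at -0.15 ± 0.05 against Zfp352-KO cells, without a call. Stbd1, a receptor for glycogen, fell by 0.85 ± 0.25 at a low level (1.04 ± 0.204 TPM in Zfp352/Zfp353-DKO, against 1.84 ± 0.359 TPM in Parental cells, adjusted p = 0.040, 1 of 19 receptors of organelles and other cargo).

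In Zfp352-KO against Parental cells 5 of the 131 were called (3.82%, against 7.06% of all tested genes), 2 higher and 3 lower. Pik3r4, the regulatory kinase-like subunit of the lipid kinase complex, rose by 0.18 ± 0.05 (edgeR adjusted p = 0.044, 1 of 8 genes). Wdfy3, a large scaffold for the clearance of aggregates, rose by 0.31 ± 0.09 (adjusted p = 0.035) although TPM of its groups overlapped, and Fam134a, of the family of endoplasmic reticulum receptors, fell by 0.28 ± 0.07 (adjusted p = 0.020). Atg101 of the initiation complex fell by 0.21 ± 0.06 (adjusted p = 0.049, 1 of 5 genes), and Hmox1, a heme-degrading enzyme and NRF2 target, fell by 0.17 ± 0.05 (adjusted p = 0.033, 1 of 16 targets). The 10 genes of the conjugation machinery, the 9 of lipid supply, the 10 of kinases and ligases that act on receptors and the 14 of fusion with lysosomes held 0 calls in the 3 comparisons by edgeR, DESeq2 or limma. Over the 3 comparisons together these 43 genes had an unadjusted edgeR p under 0.05 in 15 cases, counted once per gene and comparison. Of all 14300 tested genes, edgeR called 8.47% (Zfp352/Zfp353-DKO) and 7.06% (Zfp352-KO) against Parental cells, and 0.105% between the edited genotypes. The share of all genes at that unadjusted p is not given here, so the 15 cases have no background. These 4 lists are therefore not read as unchanged. Every pathway call named for the comparisons with Parental cells, 11 in all, was lost without Parental library 1 (edgeR adjusted p = 0.053 to 0.19).

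After removal of the length and GC trend, 21 of the 131 genes were called in Zfp352/Zfp353-DKO against Parental cells, 18 higher and 3 lower, where 1455 of 14249 genes were called in all. In that setting 6 were called in Zfp352-KO against Parental cells, 4 higher and 2 lower, where 795 of 14249 genes were called. Between the edited genotypes 0 of the 131 were called, and 46 of 14249 genes in all, so nothing is read from that 0. Of the calls named above for Zfp352-KO, Atg101 (-0.05 ± 0.05, edgeR adjusted p = 0.66), Hmox1 (-0.08 ± 0.04, adjusted p = 0.25), Fam134a (-0.18 ± 0.06, adjusted p = 0.085) and Wdfy3 (0.15 ± 0.05, adjusted p = 0.051) were lost in that setting, and Pik3r4 kept its call. Of those named for Zfp352/Zfp353-DKO, Rb1cc1 was lost (0.10 ± 0.05, adjusted p = 0.22).

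**Figure D4:**
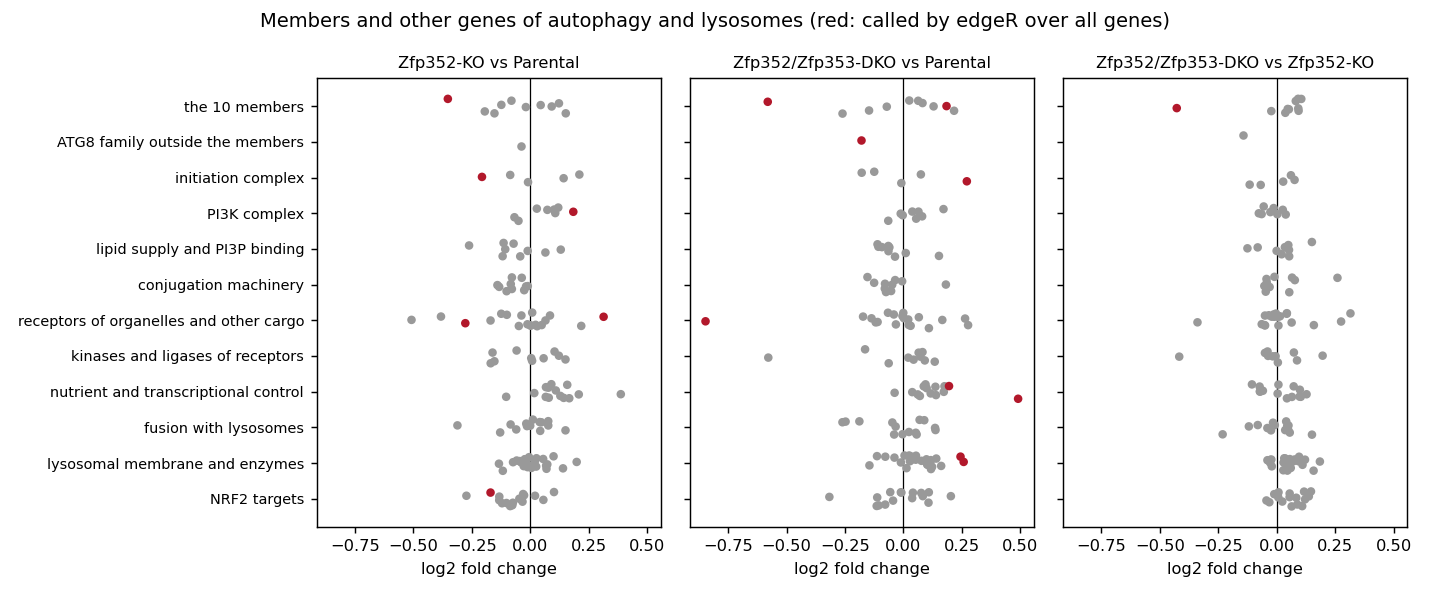
Log2 fold change (x axis) of the 10 genes (top row) and of 131 other genes of autophagy and lysosomes by list (other rows) in the 3 comparisons. Each point is a gene and red points were called by edgeR over all genes. In Zfp352/Zfp353-DKO against Zfp352-KO cells the 1 red point is Calcoco2, which was chosen with that call in view.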

How the data were processed

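Messenger RNA of 9 samples was made into strand-marking TruSeq libraries from total RNA and sequenced, per the labels' protocols. The submitters' processing notes name STAR 2.7.8a, Trim Galore 0.6.6, RSEM 1.3.3 and the mm10 assembly; settings, annotation release and strand use in counting are not stated there. Per the file headers, the authors deposited an expected count, a TPM and an FPKM for each gene, of which FPKM was left aside. Of the deposited expected counts, 9.27% were not whole (tolerance 0.001).

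After rounding, expected counts went into edgeR 4.0.16 under R 4.3.3 (TMM, filterByExpr, glmQLFit and glmQLFTest, two-sided) in 1 fit of 9 libraries by genotype, with 6 residual degrees of freedom. Calls were made at a Benjamini-Hochberg adjusted p under 0.05 over 14300 genes. Standard errors came from the quasi-likelihood F statistic. No pair of libraries from 1 genotype was within sampling noise of each other (chi-square per degree of freedom 2.51 to 7.04). Alternatives were other scalings, DESeq2 1.42.0, limma 3.58.1 on log2(TPM + 1) and log2(TPM + 0.1), other filters, a replicate block, the 6 libraries compared, omission of each library, and removal, per library, of a local regression trend (span 0.3) on transcript length and on GC content from GENCODE's GRCm38 transcripts (14249 genes with a value). The tests were checked on simulated counts. Of genes changed 1.2-fold there, 35.8% were called for Zfp352-KO and 46.3% for Zfp352/Zfp353-DKO against Parental, and 38.8% between the edited genotypes. At 2-fold these were 83.3%, 84.8% and 86.4%. A gene without a call may therefore still differ, and some genes changed 2-fold were not called in the simulation either.

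The genes, the lists and the tests were chosen with earlier results of these data known. Named are the 10 genes, Zfp352 and, from each autophagy or lysosome list, up to 4 called genes with the smallest adjusted p. The result of 1 called gene is not reported here. Likeness between the genes' patterns is not reported, since the libraries fall into genotype groups. Intervals were not computed. Depth limits precision for Optn and Gabarapl1, with the fewest counts, while standard errors of the 10 genes were largest for Optn and Map1lc3a.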

Additional observations from a re-analysis of the deposited data

How the results depend on the processing

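Calcoco2 kept its direction in all 3 comparisons under all 20 alternatives, from -0.62 to -0.52 in Zfp352/Zfp353-DKO against Parental cells, where it was called in all 20, and from -0.46 to -0.39 in Zfp352/Zfp353-DKO against Zfp352-KO cells, where it was called in 18. The 2 exceptions were limma on log2(TPM + 1) and on log2(TPM + 0.1), with 0 and 0 of the 10 genes called and 1 and 1 genes in all. Calcoco1 in Zfp352/Zfp353-DKO against Parental cells was called in 12 of 20 alternatives (0.18 to 0.23) and Gabarapl1 in Zfp352-KO against Parental cells in 13 of 20 (-0.40 to -0.27). No called value changed sign.

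Between the edited genotypes the 15 calls over all genes became 23 with DESeq2, 66 with no filter beyond 1 count, 46 with the length and GC offset, 44 with that offset and the replicate block, 3 in a fit of the 6 libraries compared, 3 at an adjusted p under 0.01, and 3 to 21 with 1 library left out. The 10 genes held 1 call in each omission, and the 131 pathway genes 0. In Zfp352-KO against Parental cells the 1010 calls became 359 and 352 with limma (log2(TPM + 1), then + 0.1), 569 with the replicate block, 257 at 0.01 and 210 to 1552 in omissions. With no filter they were 1480 of 19817 genes, with block and offset 823, in the 6 libraries 1371, with RLE factors 1020 and with DESeq2 885. The 1 call among the 10 genes there became 2 with RLE factors, DESeq2, no filter or the 6 libraries (Nbr1 joined), 0 with limma at either offset, 0 at 0.01 and 0 to 2 in omissions. The 5 pathway calls became 0 and 0 with limma, 14 with no filter, 1 with the replicate block, 8 with block and offset, 10 in the 6 libraries, 0 at 0.01 and 0 to 14 in omissions. In Zfp352/Zfp353-DKO against Parental cells the 1211 calls became 578 and 570 with limma, 467 at 0.01 and 449 to 1337 in omissions. They became 943 with DESeq2, 867 with the replicate block, 1199 in the 6 libraries, 1455 with the offset and 1462 with block and offset. The 2 calls among the 10 genes became 1 with DESeq2, the replicate block, the 6 libraries or 0.01, 5 with block and offset, and 1 to 2 in omissions. The 7 pathway calls became 4 and 3 with limma, 4 with the replicate block, 21 with the offset, 20 with block and offset, 1 at 0.01 and 1 to 10 in omissions. The causes were not tested. Deviations of libraries with the same replicate number correlated at -0.0767 to 0.106, and 5 of 9 libraries correlated best with their own number. Whether libraries of 1 number belong together was not tested, so calls lost under the block are not read as weaker effects.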
